A study of Mus musculus with 44 samples.

Results

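The nuclear genes for the subunits of the respiratory chain, ATP synthase and the mitochondrial ribosome were followed across 44 single mouse cells. Members were all genes of the deposited expression table whose symbol begins with Nduf, Uqcr, Cox4 to Cox8, Atp5, or Mrpl or Mrps and a number, together with Sdha, Sdhb, Sdhc and Sdhd. The rule found 106 of 3613 listed genes, and 104 of them passed a minimum of 10 cells with a read, out of 44, and were compared between groups. RefSeq holds 174 protein-coding mouse symbols that match the rule, and those outside the 106, Sdhc among them, were not analysed here. The members were 31 complex I subunits, 1 complex I assembly factor, 3 subunits of complex II, 7 of complex III, 13 of complex IV, 14 of complex V, and 29 large-subunit and 8 small-subunit proteins of the mitochondrial ribosome. Classes were set by symbol, although Ndufa4 protein is now placed in complex IV, Mrps18a in the large ribosomal subunit, and Mrps36 in the oxoglutarate dehydrogenase complex.

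Complexes I to IV of the inner mitochondrial membrane pass electrons from NADH and succinate to oxygen. Complex V uses the proton gradient that complexes I, III and IV build to make ATP. Most subunits are nuclear-encoded and imported, while a small core of subunits is encoded by mitochondrial DNA and made inside the organelle by the mitochondrial ribosome. In macrophages, the balance of respiration and glycolysis is known to differ between activation states, and complex II links the citric acid cycle to the chain.

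The cells came from C57BL/6J mice. Cultures of 100000 neonatal calvarial cells, the mixed cells of newborn skull bone, were kept for 16 h, either with 50000 added megakaryocytes, the platelet precursors (called co-culture here; 20 cells, plate 7), or with none (called mono-culture here; 24 cells, plate 3). Cells positive for CD45 and F4/80 and negative for CD41 were sorted, captured on a Fluidigm C1 chip, and sequenced from SMART-Seq v4 cDNA, and the labels call both groups osteomacs, the macrophages of bone surfaces. No label names an animal or a replicate culture, so each group is 1 sample, cells are not replicates, and no p-value is given. Culture and plate coincide and cannot be told apart, and the titles of the mono-culture cells also read as a co-culture although their treatment field says the opposite.

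The markers went against the common label. Reads of Ptprc, the gene for CD45, were found in all 20 co-culture cells but in only 1 of 24 mono-culture cells, and reads of Adgre1, the gene for F4/80, in 17 and 1. The 20 listed macrophage genes of 24 summed to 4135 to 62336 reads per 1000000 library reads (CPM) in the co-culture cells and to 0 to 176 in the mono-culture cells. CPM are not divided by transcript length, so they compare cells within a gene or a class and not genes with each other. The 6 listed osteoblast and fibroblast genes of 20 summed to 3.88 to 154 and to 924 to 90315 CPM. All differences below are thus between macrophage-type and stromal-type transcriptomes, and the part of the megakaryocytes in it was not tested. Library reads were 69181 to 1212604 per co-culture cell, median 834834, and 270537 to 714465 per mono-culture cell, median 527930. Co-culture cells 11 and 16 were the shallowest, and cell 16 stood apart. It had 245233 CPM of the nuclear RNA Malat1, against 1335 to 19035 in the other co-culture cells, 8451 CPM of Actb, against 52120 to 129275, and the lowest macrophage sum, 4135 CPM. It also sets the co-culture minimum of all members, of complexes I, III, IV and V and of both ribosomal subunits. Pf4, the only listed gene of 14 megakaryocyte and platelet markers, had reads in 16 of 20 co-culture cells, up to 8749 CPM, and in 5 mono-culture cells, up to 4.55 CPM. The osteoclast marker Tnfrsf11a, 1 of 6, was in 12 co-culture cells and in 0 mono-culture cells. The part of these markers in the results was not tested.

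In pooled reads, subunit genes of complexes I to V were slightly higher and mitochondrial ribosome genes slightly lower in the co-culture cells, against a background of large differences in other genes. All members together summed to 2780, 14521 and 32736 CPM (lowest, median and highest of the co-culture cells) and to 6895, 13244 and 19159 CPM in the mono-culture cells. The 2 ranges overlapped almost entirely, with the extremes in co-culture cells 16 and 19. Pooled over the cells of each group, members took 1.57% of co-culture and 1.30% of mono-culture reads, a ratio of 1.21 (95% counting interval 1.20 to 1.22). These intervals, exact binomial for the split of pooled reads between the groups, treat each read as independent and hold no variation between cells or cultures. The reads carry no molecular identifiers, so amplified copies count as separate reads and the intervals are too narrow for molecules. Without co-culture cell 19, whose members summed to 32736 CPM, macrophage markers to 8545 CPM and Tnfrsf11a to 1013 CPM, the highest of any cell, the log2 ratio of the sum was 0.15 in place of 0.27.

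Of the 104 members compared, 12 were at least 2-fold higher in the co-culture cells, against 24.4% of all 3271 genes compared, and 11 were at least 2-fold lower, against 28.3%. The other 81 lay within 2-fold. In either direction, 52.6% of all genes compared were 2-fold apart. Their median log2 pooled ratio was 0.29, beside -0.14 over all genes compared. The number of higher members depends on the total that reads are divided by. Dividing by listed reads alone moved the median of all genes by -0.26 on the log2 scale and left 6 members 2-fold higher, and centring on the median ratio between groups moved it by 0.15 and gave 18. These scalings shift every gene by the same amount, so they leave the gap of 0.43 between members and all genes unchanged by construction.

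**Figure D1:**
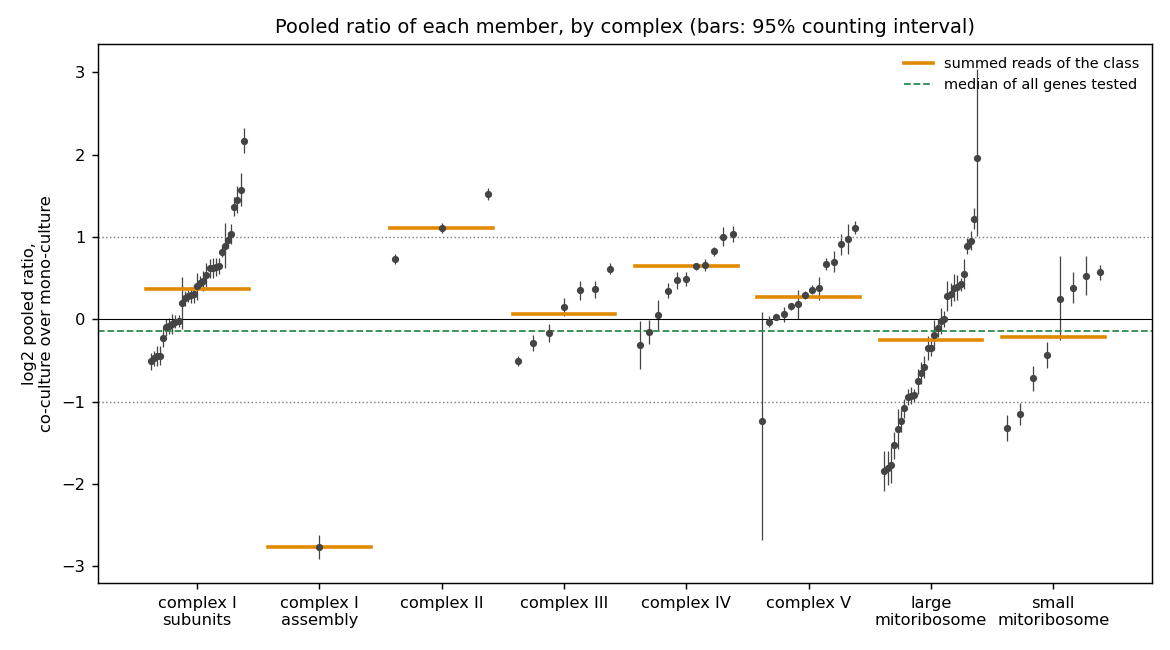
Log2 pooled ratio (co-culture over mono-culture, y axis) of each of the 104 members compared, by class (x axis), with 95% counting intervals; orange bars give the summed reads of a class, the green dashed line the all-gene median of -0.14 and dotted lines 2-fold. Complex II lies highest, at a class log2 ratio of 1.11, and most genes 2-fold lower are mitochondrial ribosome genes.

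Pooled levels and mean log levels over cells told different things. On a pooled basis 64 members were higher and 40 lower in the co-culture cells, against 46.6% and 53.4% of all genes compared. By the mean over cells of log2(CPM + 1), which gives a cell without reads a large weight, 22 were higher and 82 lower. On that scale 39 members were lower by at least 1, against 52.4% of all genes compared, and 5 higher by at least 1, against 16.6%. The 42 members that changed side were all higher in the pool and lower by mean log level, a pattern seen in 19.2% of all genes compared. The median mean-log difference was -0.58 for members and -1.10 for all genes compared. Lower values on that scale were thus general to the genes compared, which also applies to the class counts below. Fewer co-culture cells had a read in 81 of the 104 members, against 70.5% of all genes compared, and co-culture reads were more concentrated: the top cell held a median of 20.0% of a member's co-culture reads and 11.3% of its mono-culture reads, beside 33.8% and 19.6% over all genes compared. Among the cells with a read, the median level was higher in the co-culture cells for 53 members and lower for 51. It was higher for 43.8% of the genes compared that had reads in both groups. Co-culture cell 19 held the most reads of 32 members and cell 5 of 17. No member had groups whose ranges over cells were apart, as 0.703% of all genes compared did.

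The split between the respiratory complexes and the ribosome did not depend on library scaling, because it could be measured within each cell. Mitochondrial ribosome genes took 9.27%, 16.4% and 29.0% of a co-culture cell's member reads (lowest, median and highest) and 14.6%, 22.5% and 30.2% of a mono-culture cell's. The ranges overlapped, but 18 of 20 co-culture cells lay below the mono-culture median and 22 of 24 mono-culture cells lay above the co-culture median. Subunits of complexes I to V took the larger share in both, with medians of 83.5% and 75.2%. Over the pooled reads the ribosomal share was 15.6% in co-culture and 22.3% in mono-culture cells.

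**Figure D2:**
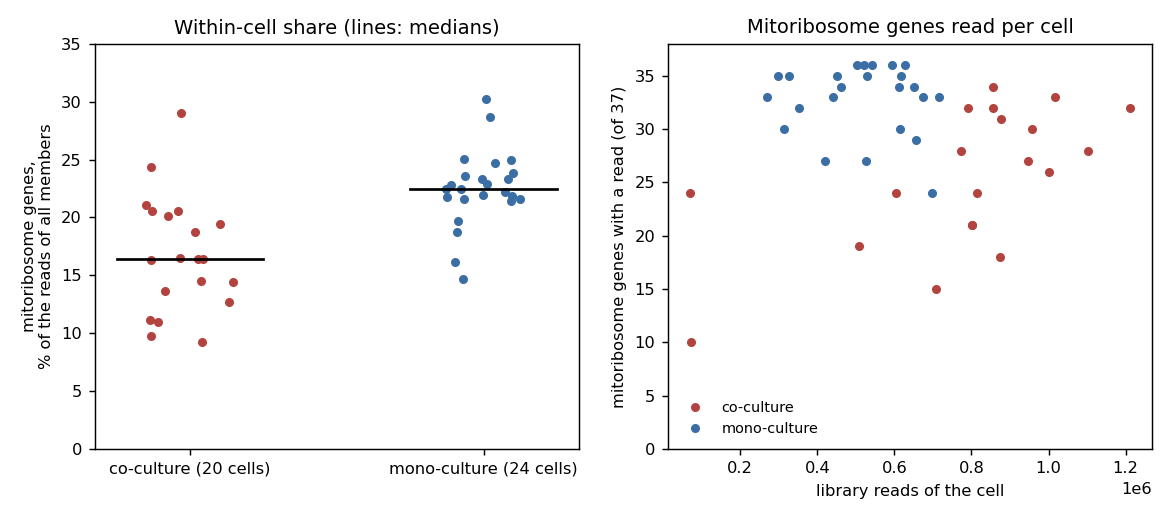
Left: mitochondrial ribosome genes as a percentage of all member reads (y axis) in each of 20 co-culture and 24 mono-culture cells, with medians of 16.4% and 22.5% as lines. Right: number of the 37 mitochondrial ribosome genes with a read (y axis) against the reads of the cell (x axis); most mono-culture cells lie higher at lower depth.

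Promoter sequence was examined because many members are known targets of nuclear respiratory factors, a set of transcription factors that bind near start sites. Windows from 250 bases before to 50 bases after the annotated start came from RefSeq, build GRCm38.p6, and 92 members had at least 1. The NRF1 motif, spelled GCGCA, any base and GCGC, and searched on both strands like the others, was in 25.7% of 101 member windows, in 12.8% of windows of listed genes and in 4.60% of all 32851 windows. The ETS motif CCGGAAG, the core bound by GABP, was in 27.7%, 19.9% and 8.86%, with 39.5% among mitochondrial ribosome windows and 20.6% among those of complexes I to V. The YY1 motif AAGATGG was in 12.9%, 8.31% and 6.34%. At least 1 of the 3 motifs was in 55.4% of member windows, 35.5% of windows of listed genes and 18.0% of all windows. The last 2 motifs can overlap in the letters AAG, a window holding several counts under each, and a match is a run of letters, not evidence of binding. Of the members 2-fold apart that had a window, 6 of 12 higher and 8 of 10 lower ones held a motif, beside 55 of all 92, and the difference between directions was not tested. The sequences printed are the longest stretch outside annotated exons within the 250 bases before the start, for the highest member and for 3 lower members with a match in that stretch. They run 5′ to 3′ on the gene's strand, with motif matches in capitals.
Ndufa6 (log2 ratio 2.17, no match in this stretch but a match elsewhere in its window, chr15:82354323-82354541, minus strand): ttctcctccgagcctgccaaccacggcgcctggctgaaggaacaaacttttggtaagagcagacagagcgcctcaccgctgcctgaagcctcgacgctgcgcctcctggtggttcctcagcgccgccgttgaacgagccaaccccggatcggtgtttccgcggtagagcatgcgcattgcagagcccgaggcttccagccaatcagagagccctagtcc
Ndufaf4 (log2 ratio -2.76, NRF1 from position -113 before the start, chr4:24897833-24898082, plus strand): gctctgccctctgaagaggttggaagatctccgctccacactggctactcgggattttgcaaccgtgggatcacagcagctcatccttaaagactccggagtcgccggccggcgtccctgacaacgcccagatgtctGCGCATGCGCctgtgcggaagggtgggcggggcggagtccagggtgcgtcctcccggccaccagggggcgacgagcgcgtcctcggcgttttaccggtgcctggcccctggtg
Mrpl9 (log2 ratio -1.53, NRF1 from position -28, chr3:94443086-94443317, plus strand): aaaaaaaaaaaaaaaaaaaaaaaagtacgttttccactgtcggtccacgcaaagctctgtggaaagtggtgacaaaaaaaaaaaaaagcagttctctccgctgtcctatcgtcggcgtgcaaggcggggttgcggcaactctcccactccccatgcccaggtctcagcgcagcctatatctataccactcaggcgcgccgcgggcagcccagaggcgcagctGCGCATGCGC
Mrps18a (log2 ratio -1.15, ETS from position -26, chr17:46110754-46110985, plus strand): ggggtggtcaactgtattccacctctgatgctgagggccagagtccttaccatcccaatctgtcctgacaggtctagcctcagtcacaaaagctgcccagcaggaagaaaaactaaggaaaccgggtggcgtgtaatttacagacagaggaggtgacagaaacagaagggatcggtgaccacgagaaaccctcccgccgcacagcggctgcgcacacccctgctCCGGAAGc

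Complex I, the NADH dehydrogenase, was modestly higher in the co-culture cells as a class. Its 31 subunit genes summed to 489, 3809 and 6209 CPM in the co-culture cells and to 1741, 3166 and 4571 CPM in the mono-culture cells. Ranges overlapped, with 13 of 20 co-culture cells above the mono-culture median. The pooled ratio was 1.29 (1.27 to 1.30); 21 subunits were higher and 10 lower, with 5 at least 2-fold higher, beside 24.4% of all genes compared, and none lower by that much, beside 28.3%. By mean log level 8 were higher and 23 lower, with a median difference of -0.38, beside -1.10 over all genes compared. The class is a set of genes with unlike ratios rather than a uniform shift, since log2 ratios ran from -0.51 to 2.17.

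Ndufa6, a LYR-motif accessory subunit that holds the mitochondrial acyl carrier protein, stood highest among all members compared. The gene lies on chromosome 15, from 82350140 to 82354322 on the minus strand (GENCODE M21). It was at 0, 151 and 398 CPM in the co-culture cells and at 0, 27.8 and 129.4 CPM in the mono-culture cells. Most co-culture cells were thus above the mono-culture cells, although the ranges overlapped. The pooled ratio was 4.50 (4.06 to 4.99), and the mean-log difference, 2.33, was of the same sign.

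Ndufv3, a small accessory subunit of the NADH-oxidising module, had medians of 58.0 and 18.7 CPM and a pooled ratio of 2.98 (2.60 to 3.43). Ndufc1, a small membrane-arm subunit, had 75.8 and 27.5 CPM and a pooled ratio of 2.74. For Ndufa13, also known as GRIM-19, the medians were 161.6 and 64.5 CPM and the pooled ratio was 2.58. These 3 and Ndufa6 were the complex I genes at least 2-fold higher under all 3 choices of scaling, with a mean-log difference of the same sign. Because each scaling moves every gene alike, this is a stricter cutoff on the same ratio. The share of all genes that meet it was not computed. Ndufa3 was 2.06-fold higher (1.89 to 2.24) and was read in all 44 cells. Ndufa13 and Ndufa3 overlap other protein-coding genes, and without stated strand use their reads cannot be told apart from those of the neighbour.

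At the other end, Ndufs4 and Ndufa8 were lower by less than 2-fold. Ndufs4, an accessory subunit of the matrix arm whose loss in mice gives a model of Leigh syndrome, was at 0, 36.1 and 290.3 CPM in the co-culture cells and at 28.8, 121.3 and 398 CPM in the mono-culture cells. It had a read in 16 of 20 co-culture and in all 24 mono-culture cells, and its log2 ratio was -0.51. Ndufa8, an accessory subunit on the intermembrane-space side, was read in 15 and 24 cells with a log2 ratio of -0.47. The most read complex I gene, Ndufb8, a membrane-arm subunit often used as a marker of assembled complex I, had medians of 237 and 190.3 CPM and a pooled ratio of 1.77.

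Ndufaf4, an assembly factor that helps to build complex I and is not part of the finished enzyme, was the lowest member compared. It lies on chromosome 4, from 24898083 to 24905001 on the plus strand. It had a read in 7 of 20 co-culture cells and in 24 of 24 mono-culture cells, at 0, 0 and 231 CPM and at 4.55, 200.7 and 550.4 CPM. Most co-culture cells were thus at 0, and the 7 with a read, with a median of 57.0 CPM among them, lay within the mono-culture range. The pooled level was 6.78-fold lower in the co-culture cells (6.12 to 7.52), and co-culture cell 14 alone held 41.5% of their reads.

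Complex II, succinate dehydrogenase, had the largest class ratio of the multi-gene classes. Its 3 listed genes summed to 112, 861 and 3586 CPM in the co-culture cells and to 21.4, 571 and 1493 CPM in the mono-culture cells. The groups overlapped, with 16 of 20 co-culture cells above the mono-culture median. The pooled ratio was 2.15 (2.10 to 2.21), and complex II took a median of 6.86% of a co-culture cell's member reads and 4.47% of a mono-culture cell's.

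The 3 genes differed in how that sum arose. Sdhb, the iron-sulfur subunit, was at 0, 308 and 1812 CPM against 0, 215 and 576 CPM, a pooled ratio of 2.16 (2.07 to 2.25), and its mean-log difference was 1.09. Sdha, the flavoprotein that oxidises succinate, was at 0, 54.4 and 1352 CPM against 0, 89.5 and 901 CPM. The typical co-culture cell was thus lower in Sdha than the typical mono-culture cell, while the pooled ratio was 2.88 (2.74 to 3.03), and the mean-log difference was -0.13. Sdhd, a membrane anchor, had medians of 173 and 228 CPM and a pooled ratio of 1.66. The top cell held 20.5% of the co-culture reads of Sdha (cell 5) and 24.6% of those of Sdhd (cell 19), near the median of 20.0% over members. Sdha and Sdhd each have a protein-coding neighbour starting within 500 bases on the opposite strand, Ccdc127 and Timm8b.

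Complex III, the cytochrome bc1 complex, gave no stable direction. Its 7 genes summed to 27.9, 731 and 2968 CPM in the co-culture cells and to 429, 1088 and 2287 CPM in the mono-culture cells. The co-culture median was lower, 7 of 20 co-culture cells lay above the mono-culture median, and the highest cell of all was co-culture cell 19. The pooled ratio was 1.05 (1.02 to 1.07), with a log2 value of 0.06 that became -0.20 with listed reads as the total and -0.13 without co-culture cell 19. As a share of member reads, complex III was lower in the co-culture cells, with medians of 5.28% and 8.28%, and 21 of 24 mono-culture cells lay above the co-culture median.

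The paired core proteins of complex III went opposite ways in the pool. Uqcrc1 had medians of 97.8 and 298 CPM and a log2 ratio of -0.50, and Uqcrc2 had medians of 73.2 and 236 CPM and a log2 ratio of 0.62. Both were thus lower in the typical co-culture cell, and cell 19 held 32.3% of the co-culture reads of Uqcrc2. Of the small subunits, the hinge protein gene Uqcrh had a log2 ratio of -0.29 and Uqcr11 of 0.36. By mean log level 7 of 7 were lower, with a median difference of -1.10, the same as over all genes compared.

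Complex IV, cytochrome c oxidase, was higher in the co-culture cells in most of its genes. Its 13 genes summed to 1048, 2351 and 5256 CPM in the co-culture cells and to 684, 1553 and 2757 CPM in the mono-culture cells. The upper part of the co-culture range had no mono-culture cell in it, and 16 of 20 co-culture cells were above the mono-culture median. The pooled ratio was 1.57 (1.55 to 1.60), 9 of 11 genes compared were higher (5 of 11 by mean log level), and the class took medians of 16.4% and 12.6% of member reads per cell.

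The widely expressed isoforms held most of the reads of this class. Cox6a1 was at 27.9, 662 and 1641 CPM against 128.96, 467 and 1098 CPM, with a pooled ratio of 1.56, and Cox4i1 was 1.77-fold higher. Both were read in all 44 cells, and their ranges overlapped. Cox7b was 2.05-fold higher (1.93 to 2.19) and Cox8a 2.01-fold higher (1.85 to 2.18), both small structural subunits. Among the forms of subunit 7a, Cox7a2 had a log2 ratio of 0.47. Cox7a2l, the supercomplex assembly factor, had one of -0.15. The muscle forms were almost unread: Cox7a1 had reads in 2 co-culture cells and in 0 mono-culture cells, and Cox6a2 in 0 and in 2. Neither entered the comparison. Cox7c, at -0.31, was the lowest of the 11, with pooled levels of 12.7 and 15.8 CPM, and it has a near-identical copy under another gene symbol.

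**Figure D3:**
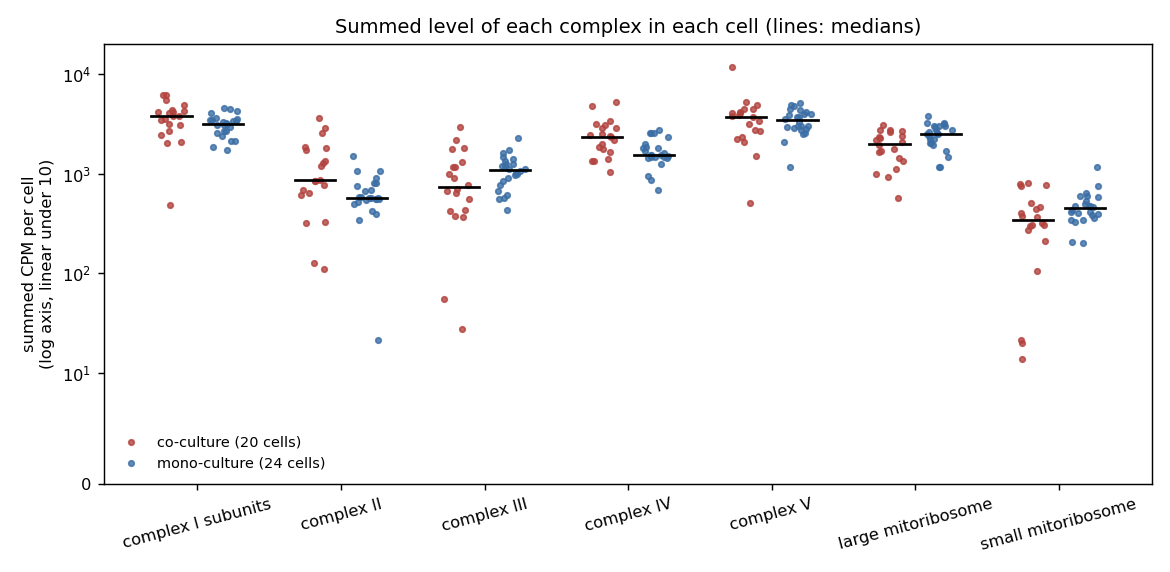
Summed CPM of each class (y axis, log scale, linear under 10) in each co-culture cell (red, 20) and mono-culture cell (blue, 24), with medians as black lines; the single assembly factor is left out. Medians are higher in the co-culture cells for complexes I, II, IV and V and lower for complex III and both ribosomal subunits, and every class overlaps.

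Complex V, ATP synthase, held the most member reads in both groups and differed little in sum. Its 14 genes summed to 503, 3724 and 11683 CPM in the co-culture cells and to 1173, 3425 and 5077 CPM in the mono-culture cells. The co-culture maximum, cell 19, stood far above the others. The pooled ratio was 1.20 (1.19 to 1.22), a log2 value of 0.27 that was 0.05 without cell 19 and 0.01 with listed reads as the total. In the pool 12 genes were higher and 2 lower, beside 46.6% and 53.4% of all genes compared. At least 2-fold higher was 1 gene, beside 24.4% of all genes compared, and at least 2-fold lower 1, beside 28.3%. By mean log level 6 genes were higher and 8 lower. Median shares of member reads were 24.6% and 26.3%.

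The catalytic beta subunit gene Atp5b, the member with the most reads, was at 0, 884 and 3039 CPM in the co-culture cells and at 20.9, 882 and 2075 CPM in the mono-culture cells. Its medians and its pooled levels, with a ratio of 1.02 (0.994 to 1.04), were nearly equal. Smaller subunits differed more: Atp5d, the delta subunit of the central stalk, was 2.16-fold higher (2.04 to 2.29), Atp5k, a membrane subunit near the dimer interface, was 1.97-fold higher, and both were also higher by mean log level. Atp5d overlaps the gene Cbarp. The 3 genes for the identical mature c-ring protein were unequally read, as reads that are not corrected for length or for reads shared with copies. Atp5g3 had pooled levels of 246 and 251 CPM, Atp5g1 of 41.8 and 36.8 CPM, and Atp5g2 of 0.512 and 1.21 CPM. Both Atp5g1 and Atp5g2 have near-identical copies. Atp5g2 rested on reads in 4 and 8 cells, and the interval of its ratio, 0.156 to 1.06, included 1.

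The large subunit of the mitochondrial ribosome was lower in pooled reads of the co-culture cells, close to the median of all genes compared. Its 29 genes summed to 573, 2002 and 3045 CPM in the co-culture cells and to 1158, 2530 and 3814 CPM in the mono-culture cells. The groups overlapped, but only 5 of 20 co-culture cells lay above the mono-culture median. The pooled level was 1.19-fold lower (1.17 to 1.21), 18 genes were lower and 11 higher, and 7 were at least 2-fold lower, beside 28.3% of all genes compared, and 2 at least 2-fold higher, beside 24.4%. Relative to the all-gene median the log2 ratio of the class was -0.11. The median share of cells with a read was 70% of co-culture and 91.7% of mono-culture cells, beside 65% and 83.3% over all genes compared.

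Mrpl53 and Mrpl10 were lowest. Mrpl53 was at 0, 0.934 and 177 CPM in the co-culture cells and at 0, 38.7 and 160 CPM in the mono-culture cells, 3.59-fold lower (3.04 to 4.25). Mrpl53 has a near-identical copy under another symbol and overlaps the gene Gm42688. Whether that copy is the overlapping gene was not checked. Mrpl10, whose protein belongs to the stalk that binds translation factors, was at 0, 0 and 256 CPM against 0, 22.0 and 328 CPM, 3.50-fold lower. Of its co-culture reads 80.8% lay in cell 4, and without the top cell of each group the log2 ratio was -3.83 in place of -1.81. Mrpl57 was 3.42-fold lower, Mrpl9 2.89-fold, Mrpl16 2.51-fold, Mrpl32 2.35-fold and Mrpl15 2.12-fold. Apart from Mrpl15, each of these 7 was at least 2-fold lower under all 3 scalings and by mean log level. Scaling shifts every gene alike, so the 3 scalings act as a stricter cutoff on the same ratio and add no separate support. The share of all genes that meet it was not computed. Mrpl17, the most read of the class, had medians of 89.4 and 263 CPM and was 1.89-fold lower.

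Mrpl55 and Mrpl23 were the exceptions. Mrpl55 had medians of 128.9 and 52.2 CPM and was 2.33-fold higher (2.14 to 2.54) with a mean-log difference of 0.83. Mrpl23 was 3.90-fold higher, but at 3.45 and 0.886 CPM, in 10 and 6 cells, with an interval of 2.02 to 8.27, and it has a near-identical copy. Single cells could dominate other genes: co-culture cell 7 held 87.7% of the co-culture reads of Mrpl3 and 64.2% of those of Mrpl48.

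The small ribosomal subunit behaved alike in sum and was mixed by gene. Its 8 genes summed to 14.0, 346 and 798 CPM in the co-culture cells and to 202, 450 and 1161 CPM in the mono-culture cells, and the pooled level was 1.16-fold lower (1.12 to 1.20). Most co-culture cells lay under the mono-culture median. Mrps18b was 2.49-fold lower (2.24 to 2.78), with a read in 10 of 20 and in 22 of 24 cells, and Mrps18a was 2.22-fold lower. Mrps18a and Mrps18b encode related proteins. Mrps18a overlaps the gene Rsph9, and Mrpl9 of the large subunit overlaps Oaz3, so their reads may be shared with those genes. Mrps14 had a log2 ratio of 0.57 and Mrps33 of 0.53, but their mean-log differences were -0.08 and -0.23, and 8 of 8 genes of the class were lower on that scale. The median mean-log difference of the class was -1.14, beside -1.10 over all genes compared.

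The gap in detection was also seen at equal depth, and the co-culture cells were the more deeply sequenced. A median of 26.5 of the 37 ribosomal genes had a read in a co-culture cell and 34 in a mono-culture cell. When cells were thinned to a common 310000 reads, with 18 co-culture and 22 mono-culture cells deep enough, the medians were 26.5 and 33. For complexes I to V they were 60.5 and 64 of 68 genes. Over all listed genes the thinned medians were 1934 and 2468.5, so fewer detected genes in the co-culture cells was general to the table. As shares, thinned detection was 71.6% and 89.2% for ribosomal genes, 89.0% and 94.1% for complexes I to V, and 53.5% and 68.3% for all listed genes.

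**Figure D4:**
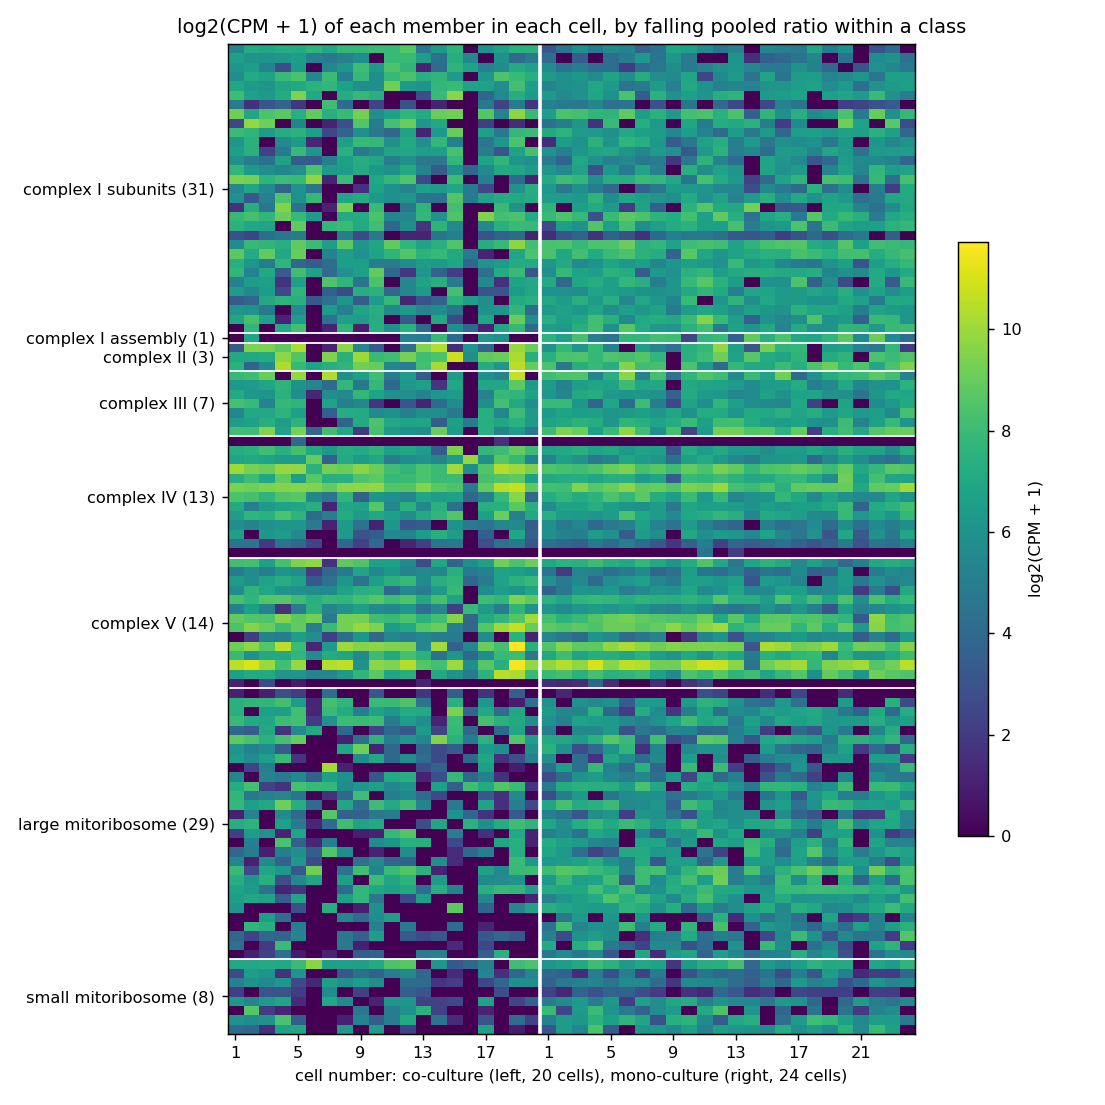
Log2(CPM + 1) of all 106 members (rows, grouped by class and ordered by falling pooled ratio within it) in 20 co-culture cells (left of the white line) and 24 mono-culture cells (right); dark means no read. Dark cells gather in the lower rows of the large ribosomal subunit on the left, and co-culture cell 16, at 2780 CPM in sum, is dark in most classes.

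The coefficient of variation of the summed member CPM was 40.03% over the co-culture cells and 23.2% over the mono-culture cells. The difference rests on 2 co-culture cells, chosen after seeing the data: without cells 16 and 19 it was 22.0%, and without cell 19 alone 29.5%. The sums of complexes I to IV and of complex V went together across cells, with Spearman's rho of 0.71 over 20 co-culture and 0.59 over 24 mono-culture cells. For complexes I to V against the ribosomal genes rho was 0.51 and 0.77. These are descriptions over cells that share a plate and a total. The summed member level had a rho with library reads of 0.53 in co-culture and -0.24 in mono-culture cells. Genes whose CPM ranked most like the member sum were Phb, a prohibitin of the inner membrane (rho 0.78), and Atpif1, the ATP synthase inhibitor (0.74), in co-culture cells. In mono-culture cells they were Ranbp1, a partner of the Ran nuclear transport GTPase (0.85), and the tubulin gene Tubb5 (0.82), among 1691 genes ranked.

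Other mitochondrial genes gave a frame for these values. Of 24 genes of protein import and mitochondrial chaperones, 21 were lower and 3 higher in the co-culture cells, with 10 at least 2-fold lower, none higher by that much, and a median log2 ratio of -0.71. Over all genes compared, 53.4% were lower, 28.3% at least 2-fold lower and 24.4% at least 2-fold higher. Timm9, an import chaperone of the intermembrane space, was lowest, at -3.55, with reads in 5 co-culture and 17 mono-culture cells. All 5 listed genes of mitochondrial DNA expression were lower, with Polrmt, the mitochondrial RNA polymerase, at -2.75 and Ssbp1, the single-strand DNA-binding protein, at -0.15. Polrmt had reads in only 2 co-culture and 9 mono-culture cells, and co-culture cell 3 held 93.9% of its co-culture reads. The directions of both lists were the same under the other 2 scalings, with 23 and 21 import genes lower. Of 5 genes of electron entry and ubiquinone, 4 were lower, 3 of them at least 2-fold, with a median log2 ratio of -1.86. They ran from Etfb at 1.22 to Coq3 at -5.94, which had reads in only 1 co-culture cell. Of 6 mitochondrial antioxidant genes 3 were higher and 3 lower, and of 4 complex members and partners with other symbols 3 were higher. The 13 citric acid cycle and pyruvate genes were divided, 7 higher and 6 lower, from Ogdh at 3.33 to Idh3a at -1.02, and with listed reads as the total 10 were lower. Ogdh had medians of 22.1 and 11.3 CPM, and co-culture cell 19 held 41.2% of its co-culture reads. Of 11 assembly factors with other symbols, 6 were higher and 5 lower, from Tmem126b, a complex I assembly factor, at 3.53 to Ttc19, a complex III factor, at -2.69. Tmem126b had reads in only 8 co-culture and 6 mono-culture cells, with medians of 0 and 0 CPM. Co-culture cell 19 held 47.1% of its co-culture reads. Ttc19 had reads in 5 and 13 cells. Among 18 inner-membrane carriers and shaping proteins, Ucp2, a carrier long noted in macrophages, was at 6.43 and the fusion protein Opa1 at -2.15. Of 4 regulators compared, Yy1 was lowest (-2.24) and Gabpb2 highest in the pool (2.19), although its medians were 0.412 and 3.27 CPM and co-culture cell 12 held 58.1% of its co-culture reads.

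Gene structure limits some of these values. In the annotation, 17 members have a near-identical copy under another gene symbol (at least 95% identity over 50% of the transcript). For 15 of them a copy is an annotated pseudogene, and Atp5h has 4 copies. Where a copy lies was not checked, so it can be a gene that overlaps the member. Members with a copy had median pooled levels of 41.8 and 44.3 CPM and the others of 109 and 94.6 CPM. Whether reads were lost to the copies was not tested. Without these members the summed log2 ratio was 0.28. A protein-coding neighbour started head to head within 500 bases of 22 members, 20.8%, beside 10.3% of listed protein-coding genes. Other named members also overlap protein-coding genes: Cox4i1 (Emc8 and Gm20388), Ndufb8 (Gm20538), Uqcrc2 (Pdzd9), Mrpl48 (Rab6a) and Cox6a2 (Itgad). Whether their reads were shared with these genes was not tested.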

How the data were processed

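Single-cell expression was deposited by the authors as 1 table of linear signal values for 3613 genes in 44 cells, mapped to mm10 and handled with Seurat per the submitters' processing notes. For the aligner, the read counter and the gene models, the sources used here give no name. The design foresaw counts or a deposited signal. Each deposited signal value equalled reads × 1e+09 / library reads / a whole number particular to the gene. Library reads and that divisor were recovered from the values themselves, which gave whole reads (within 0.0001) for all 99807 values above 0, of which 4031 belonged to members. The recovery is an inference: CPM is recovered reads × 1e+06 / library reads, the divisor is not gene length, so levels are compared within a gene or as reads, and a divisor from few cells (Cox6a2, Cox7a1, Atp5g2) is less certain.

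Reads were pooled per group, genes with a read in at least 10 cells were compared, and a 2-fold difference was the call, with a floor of 3 reads in a group. Intervals are 95% exact binomial. No test between groups was made. Mean log levels used a pseudocount of 1 CPM. Python 3.11.15, numpy 2.4.6, pandas 2.3.3, scipy 1.17.1, matplotlib 3.10.9 and blastn 2.17.0 (copies) were used. The divisor step of the read recovery was run on simulated data with library reads taken as known. The recovery of library reads themselves was not tested. Named members were all members of a class of up to 4, otherwise the 2 highest and 2 lowest pooled ratios and the most read gene of a class, and sets of paralogs. Genes named beside them (other members at least 2-fold apart, Cox4i1, Mrpl3, Mrpl48) were chosen after their values were seen. Members and lists were chosen with earlier results of these data known. Alternatives were 3 totals or scalings, thinning, left-out cells, other means and pseudocounts, detection limits, the deposited signal itself, and members without near-identical copies.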

Additional observations from a re-analysis of the deposited data

How the results depend on the processing

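No paired analysis was possible because each group is 1 sample and the replicate numbers only name cells. The log2 ratio of the summed member level, 0.27, was 0.012 with listed reads as the total, 0.42 after centring on the median ratio, 0.14 without the top cell of each gene, 0.14 with the mean of the CPM of each cell, 0.21 after thinning and 0.23 from the deposited signal. In settings chosen after seeing the data it was 0.15 without co-culture cell 19 and 0.23 without mono-culture cell 21. Listed genes took a median of 76.4% of the library reads of a co-culture cell and 64.4% of those of a mono-culture cell. The cause of these shifts was not tested. The median log2 ratio of members, 0.29, was 0.026 with listed reads, 0.44 after centring, 0.30 without the shallow cells 11 and 16, 0.12 without top cells, 0.25 after thinning, 0.078 both with the mean of the CPM of each cell and from the deposited signal, 0.17 without cell 19, 0.23 without mono-culture cell 21, -0.58 by mean log2(CPM + 1) and -0.26 with a pseudocount of 10 CPM. In each of these it stayed above the median of all genes compared, by 0.25 to 0.59. Listed reads and centring shift all genes alike, so these settings could not alter that gap. For a single gene, the deposited signal and the mean of the CPM of each cell give the same ratio by construction. The count of members 2-fold higher, 12, was 6 with listed reads, 5 by mean log2(CPM + 1) and 2 with a pseudocount of 10 CPM, and it was 8 without co-culture cell 19. The count 2-fold lower, 11, was 18 without the top cell of each gene, 39 by mean log2(CPM + 1) and 22 with the larger pseudocount, beside 28.3% of all genes compared in the main setting and 37.9%, 52.4% and 32.6% in these. Complex III reversed from 0.06 to -0.20 with listed reads, -0.12 without top cells, -0.11 after thinning, -0.19 with the mean of the CPM of each cell, -0.019 from the deposited signal and -0.13 without co-culture cell 19. Cox7a1, read in 2 cells, reversed from 2.25 (against the floor of 3 reads in the mono-culture cells, which had 0) to -0.28 without its top cell. Of 324 values of the named members' ratios under alternatives, 165 lay inside the counting interval of the ratio reported and 159 outside it. The values from the deposited signal repeat those from the mean of the CPM of each cell, so these counts and the sign changes include repeats. The sign differed in 15 values of 5 members: Cox7a1, Atp5b, Atp5g1, Atp5g3 and Cox7a2l, of which only Cox7a1 was past 2-fold. The median numbers of members with a read, 89.5 and 99.5, were 77.5 and 87 at a limit of 10 reads. Depth limits the values of genes read in few cells, and counting intervals hold no variation between cultures.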
